A study of Mus musculus with 16 samples.

Results

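The genes described here are 7 kinases and scaffolds of the RAF-MEK-ERK cascade, Araf, Braf, Map2k1, Map2k2, Mapk3, Ksr1 and Rps6ka1, together with Esr1, the gene of estrogen receptor alpha. They were the rows of the count table whose mouse gene IDs carry these 8 symbols, 8 of 52636 rows in all. Each of the 8 passed the filter on low counts, as did 12742 genes of the table. The table held 16 RNA libraries from mouse cells of a pluripotent type that the labels call RSC, derived from embryonic stem cells. All cells carried a RAF kinase construct that 4-hydroxytamoxifen (4OHT) switches on, so every group, the uninduced one included, holds the construct.

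The usual medium was N2B27 with the inhibitors IWP2 and PD03 (a MEK inhibitor) and the cytokine LIF. In every group PD03 was replaced for 48 h by 250 nM of PD17, an inhibitor of FGF receptors. The group 0h was collected with no 4OHT, 2h after 2 h of 4OHT at 250 nM, and 4h after 4 h of it. The group rev had 4 h of 4OHT and then 2 h of MEK inhibitor, at a dose the labels do not state. Each group held 2 libraries of clone 4 and 2 of clone 8. The series describes these as 2 biological clones, and nothing in the labels says that the libraries of 1 clone came from separate cultures, so the p-values measure the spread between these libraries. A group with 6 h of 4OHT and no inhibitor was not analysed here, so rev differs from 4h by 2 h of further culture as well as by the inhibitor.

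In this cascade RAF kinases phosphorylate the MEK kinases, which phosphorylate the ERK kinases, and ERK then phosphorylates other kinases and transcription factors. Scaffold proteins such as KSR1 hold the members together. In mouse pluripotent cells, ERK signalling downstream of FGF favours exit from the naive state, and MEK inhibitors are used in their culture for that reason. Inducible RAF constructs of this kind commonly join the kinase to the hormone-binding part of an estrogen receptor, which 4OHT binds. The labels do not say from which species or receptor part the construct was made. Reads of a receptor part of the construct, where they match, and reads of the cells' own Esr1 cannot be told apart in counts per gene.

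Libraries held 4.31 to 10.4 M counts (M, units of 1000000, median 8.03 M). A set of 8 features, each above 1% of all counts, took 46.7% to 78.9% of a library, which left 1.30 to 5.46 M counts for other genes. Levels are given as CPM, a gene's counts per 1000000 counts of the tested genes after TMM scaling, and 3 counts correspond to 0.210 to 0.908 CPM. The library of rev clone 8 labelled 1 stood apart with the highest share of these features and the lowest TMM factor, 0.537. Of the 6 pluripotency genes listed, Pou5f1 lay at 120 to 176 CPM, Sox2 at 201 to 241 and Nanog at 111 to 722. Esrrb lay at 154 to 364 CPM and Zfp42 at 83.9 to 160, while Otx2 was low at 4.18 to 15.9. A list of rosette-state genes held Otx2, Podxl (7.57 to 53.7 CPM) and Pard3 (45.5 to 64.3 CPM). The 4 feeder fibroblast markers summed to at most 2.49 CPM in any library, 5 primitive endoderm markers to at most 7.18 CPM, and 3 mesoderm markers to at most 8.64 CPM. Neural markers reached 22.8 CPM and trophoblast markers 18.1 CPM, both in clone 4 at 4h. Genes that ERK is known to induce (Spry2, Spry4, Dusp4, Dusp6, Etv4 and Etv5) were called higher at 2h and at 4h against 0h in 6 of 6 cases and lower at rev against 4h in 6 of 6, where a call is an adjusted p under 0.05 in edgeR's quasi-likelihood test.

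Among the 8 genes, most levels moved little with 4OHT, and 2 stood out. Esr1 was called higher at 2h, 4h and rev than at 0h. Braf was called higher at 4h, a change carried by clone 4. The count of called genes among the 8 was 1 at 2h against 0h, 2 at 4h against 0h and 1 at rev against 0h, all higher. Over all tested genes the shares called were 17% at 2h, 12.9% at 4h and 10.5% at rev, and the shares called higher were 9.49%, 7.35% and 5.51%, so the counts among the 8 genes are near the background. The median change of the 8 genes was −0.17 on the log2 scale at 2h, −0.11 at 4h and −0.12 at rev, against 0.0033, −0.0064 and 0.00027 over all tested genes. These 3 comparisons share the 0h libraries.

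**Figure D1:**
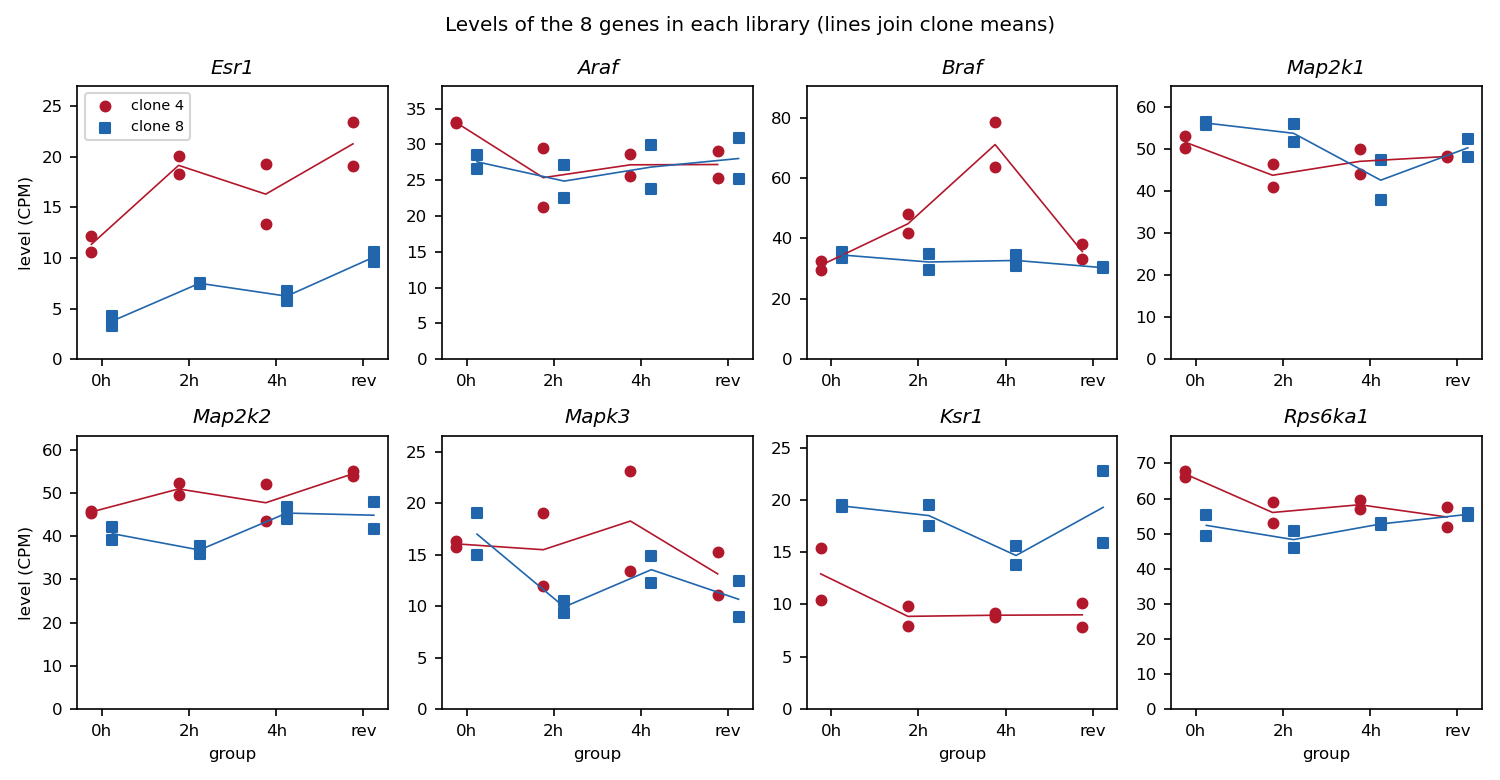
Level of each of the 8 genes (CPM, vertical axis from 0) in every library of the 4 groups (horizontal axis), with 1 point per library, red circles for clone 4, blue squares for clone 8 and lines joining the clone means. Esr1 is higher in clone 4 than in clone 8 in every group, Ksr1 is lower in clone 4 in every group, and Braf reaches 78.7 CPM at 4h in clone 4 and at most 35.6 CPM in any clone 8 library.

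Esr1 encodes a nuclear receptor that estrogens and 4OHT bind. It lies at chr10:4611593-5005614 on the plus strand (GRCm38, GENCODE M21). In clone 4 its level was 10.6 and 12.1 CPM at 0h, 18.3 and 20.04 at 2h, 13.3 and 19.3 at 4h, and 19.1 and 23.5 at rev. In clone 8 it was 4.25 and 3.31 CPM at 0h, 7.45 and 7.57 at 2h, 5.73 and 6.74 at 4h, and 10.6 and 9.60 at rev. Within each clone, every library with 4OHT was higher than both 0h libraries. Such separation was not particular to Esr1. In clone 4 the 0h libraries also stood clear of all others for Braf (lower at 0h) and for Araf, Map2k1, Ksr1 and Rps6ka1 (higher at 0h). In clone 8 they did so for Mapk3 (higher at 0h). The share of all tested genes that separate in this way was not counted. These values rest on 23 to 242 counts per library. Whether reads were counted by strand is not given in the sources used here, and Esr1 shares no exon sequence with another annotated gene. Of the other 7 genes, Araf, Braf, Ksr1 and Rps6ka1 share exon sequence with a gene on the opposite strand, over 0.138%, 1.05%, 2.62% and 5.80% of their exon length, so reads there cannot be told apart without strand.

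At 2h Esr1 had risen 1.69-fold in clone 4 and 1.99-fold in clone 8 over the 0h means. The log2 change over both clones was 0.83 ± 0.15 (SE, n = 4 libraries a group, edgeR adjusted p = 0.00089). At rev it was 1.87-fold higher than at 0h in clone 4 and 2.67-fold higher in clone 8 (log2 change 1.09 ± 0.15, edgeR adjusted p = 0.00024). Each clone fitted alone gave a call in both comparisons, with edgeR adjusted p of 0.0074 and 0.0024 at 2h and 0.0014 and 0.00057 at rev. In bulk RNA, more cells with the transcript and more transcript per cell cannot be told apart.

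By mean in each clone, the level of Esr1 at 4h lay between those at 0h and 2h. Its log2 change at 4h against 0h was 0.56 ± 0.16 (edgeR adjusted p = 0.022). That call was lost without 0h library 1 of clone 4 (edgeR adjusted p = 0.059), without 0h library 2 of clone 8 (0.061) or without 4h library 2 of clone 4 (0.092), and neither clone alone gave it (0.14 in clone 4 and 0.083 in clone 8). From 2h to 4h the log2 change was −0.27 ± 0.14 (edgeR adjusted p = 0.21). From 4h to rev Esr1 rose by 0.52 ± 0.14 (edgeR adjusted p = 0.027), and this call was lost when any 1 of 4 libraries was left out, 4h library 1 of clone 4 or of clone 8, or rev library 2 of clone 4 or of clone 8 (adjusted p 0.053 to 0.15). The change of Esr1 did not differ between the clones past the threshold: the clone 8 change minus the clone 4 change was 0.22 ± 0.29 at 2h, 0.22 ± 0.31 at 4h and 0.25 ± 0.28 from 4h to rev (edgeR adjusted p = 0.70, 0.83 and 0.64).

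By mean in each clone, Esr1 was higher at rev and 2h than at 4h, and lowest at 0h. Libraries overlapped in clone 4, where 4h library 2 held 19.3 CPM and 2h library 1 held 18.3. A principal component also set rev and 2h apart from the other groups, though it placed 4h with 0h. The third principal component of the 500 most variable genes held 8.57% of their variance, with scores of 3.56 to 11 in the 0h and 4h libraries and −12.1 to −3.27 in the 2h and rev libraries. Its part in the Esr1 result was not tested. Between rev and 2h, 1.78% of all tested genes were called, against 9.61% between rev and 4h.

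Esr1 was lower in clone 8 in all 4 groups with no overlap of libraries, and clone 4 held 3.005 times the clone 8 level at 0h, 2.55 times at 2h, 2.62 times at 4h and 2.11 times at rev. The log2 difference, clone 8 minus clone 4, was −1.33 ± 0.10 (n = 8 libraries a clone, edgeR adjusted p = 7.6e-09). Of all tested genes, 13.7% had clones that did not overlap in any of the 4 groups with one direction throughout, 6.07% with clone 4 higher and 7.6% with clone 8 higher.

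Clone differences in level were common among the 8 genes. In edgeR's test 5 of 8 were called, 1 higher and 4 lower in clone 8, against 34.9% of all tested genes (17.1% higher and 17.8% lower). Beside Esr1, the lower genes were Braf (log2 difference −0.44 ± 0.12, adjusted p = 0.0090), Map2k2 (−0.25 ± 0.065, adjusted p = 0.0056) and Rps6ka1 (−0.17 ± 0.061, adjusted p = 0.030). The Rps6ka1 call was lost when any 1 of 6 libraries of the 0h or 2h groups was left out, 0h library 1 or 2 of either clone or 2h library 2 of either clone (edgeR adjusted p 0.052 to 0.079). Ksr1 was the gene called higher in clone 8.

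Ksr1 encodes the scaffold that binds RAF, MEK and ERK, and lies at chr11:79013440-79146407 on the minus strand. In clone 4 its level was 15.4 and 10.5 CPM at 0h, 7.91 and 9.81 at 2h, 8.80 and 9.14 at 4h, and 10.2 and 7.86 at rev. In clone 8 it was 19.3 and 19.5 CPM at 0h, 19.5 and 17.5 at 2h, 15.6 and 13.8 at 4h, and 22.7 and 15.9 at rev. Both clone 8 libraries lay above both clone 4 libraries in each group.

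The clone 8 level of Ksr1 was 1.503 times that of clone 4 at 0h, 2.09 times at 2h, 1.64 times at 4h and 2.14 times at rev. The log2 difference over all groups was 0.87 ± 0.11 (edgeR adjusted p = 3.9e-06), and the call held without each library in turn. Between groups Ksr1 passed in no comparison. The log2 value nearest to a call was −0.45 ± 0.16 at 4h against 0h (edgeR adjusted p = 0.063). It passed without rev library 1 of clone 8 (0.045), the library that stood apart.

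Braf encodes a RAF kinase that activates MEK, and it lies at chr6:39603237-39725463 on the minus strand. In clone 4 its level was 29.6 and 32.6 CPM at 0h, 41.8 and 48.0 at 2h, 78.7 and 63.5 at 4h, and 33.1 and 38.2 at rev. In clone 8 it was 35.6 and 33.5 CPM at 0h, 29.5 and 34.9 at 2h, 31.0 and 34.5 at 4h, and 30.6 and 30.1 at rev. In clone 4 Braf was highest at 4h, and 2h lay between 4h and the other groups. The rev libraries lay just above those of 0h, with 33.1 CPM in the lower rev library and 32.6 in the higher 0h library. The share of all tested genes whose groups separate within a clone was not counted. In clone 8 the 2h and 4h libraries overlapped those of 0h, and both rev libraries lay slightly below them.

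Fitted alone, clone 4 gave a 2.29-fold higher Braf level at 4h than at 0h (log2 change 1.19 ± 0.13, edgeR adjusted p = 2.5e-07). At 2h the log2 change in clone 4 was 0.51 ± 0.14 (edgeR adjusted p = 0.0089), from 2h to 4h it was 0.68 ± 0.13 (0.00023), and from 4h to rev it was −0.997 ± 0.13 (1.5e-06). At rev the value in clone 4 was 0.20 ± 0.14 above 0h (edgeR adjusted p = 0.36). In clone 8 alone the log2 changes were −0.11 ± 0.11 at 2h, −0.090 ± 0.11 at 4h and −0.11 ± 0.12 from 4h to rev (edgeR adjusted p = 0.53, 0.70 and 0.70). Each clone held 2 libraries a group in these fits. Of all tested genes, clone 4 alone called 20.7% at 2h, 19% at 4h and 16.8% at rev against 0h, 27.1% from 2h to 4h and 24.6% from 4h to rev. Clone 8 alone called 17.8%, 6.28%, 9.9%, 9.65% and 6.42% in the same comparisons.

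The difference between the clones in the Braf change was tested directly. The clone 8 change minus the clone 4 change was −0.63 ± 0.18 at 2h against 0h, −1.29 ± 0.18 at 4h against 0h, and 0.90 ± 0.18 from 4h to rev (edgeR adjusted p = 0.024, 8.9e-06 and 0.00079). Braf was the 1 gene of 8 called in each of these, against 7.94%, 5.72% and 13.2% of all tested genes in either direction and 5.01%, 3.69% and 6.3% in the direction of Braf. The difference at 2h was lost without any 1 of 5 libraries, 0h library 1 or 2 of clone 4, 0h library 1 of clone 8, 2h library 2 of clone 4 or 2h library 1 of clone 8 (adjusted p 0.060 to 0.15). The differences at 4h and from 4h to rev held without each library in turn.

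With the clones together, Braf was 0.56 ± 0.18 higher at 4h than at 0h and −0.60 ± 0.18 from 4h to rev in log2 units (edgeR adjusted p = 0.040 and 0.035). The first call was lost without any 1 of the 4 clone 4 libraries of 0h and 4h (adjusted p 0.096 to 0.18), and the second without any 1 of the 4 clone 4 libraries of 4h and rev or rev library 2 of clone 8 (0.051 to 0.18). The call at 4h was also lost with library totals in place of TMM (adjusted p = 0.32, and 0.056 without the 8 abundant features), and both were lost without clone in the model (0.14 and 0.18). The 6 ERK-induced genes also moved more in clone 4, with a median log2 CPM difference between 4h and 0h of 5.08 in clone 4 and 1.94 in clone 8. At 4h against 0h the clone 8 change minus the clone 4 change was −2.60 for Dusp6 and −2.97 for Spry4 (edgeR adjusted p = 4.9e-06 and 5.7e-06). Whether the Braf difference depends on the size of that response was not tested.

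Summed markers of 3 of 5 other cell types (neural, trophoblast and mesoderm) were highest in clone 4 at 4h, where Braf was highest. Those of primitive endoderm were lowest at 4h (3.06 to 4.27 CPM) and reached 7.18 CPM at rev, and those of feeder fibroblasts reached 2.03 CPM at 4h and 2.49 at rev. The 2 neural markers (Sox1 and Pax6) summed to 4.20 to 6.37 CPM at 0h, 5.24 to 8.56 at 2h, 5.93 to 22.8 at 4h and 5.24 to 6.27 at rev, with the highest value in clone 4. Pax6 carried the top of that range, with at most 21.7 CPM against 5.12 for Sox1. edgeR called Pax6 higher at 2h and 4h against 0h and lower in clone 8, and Sox1 lower at 2h, higher in clone 8 and neither way at 4h. The 3 trophoblast markers summed to 3.45 to 9.09, 2.66 to 9.12, 1.69 to 18.1 and 4.61 to 10.6 CPM, mostly from Gata3, while Cdx2 and Elf5 had at most 7 and 4 counts in any library and 0 in at least 1. The 6 pluripotency genes summed to 757 to 1293 CPM at 4h, with the lowest value in clone 4, and to at least 1041 CPM in every library of the other groups. Whether these sums came from other cells or from single transcripts in the same cells was not tested, nor was their part in the Braf result.

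**Figure D2:**
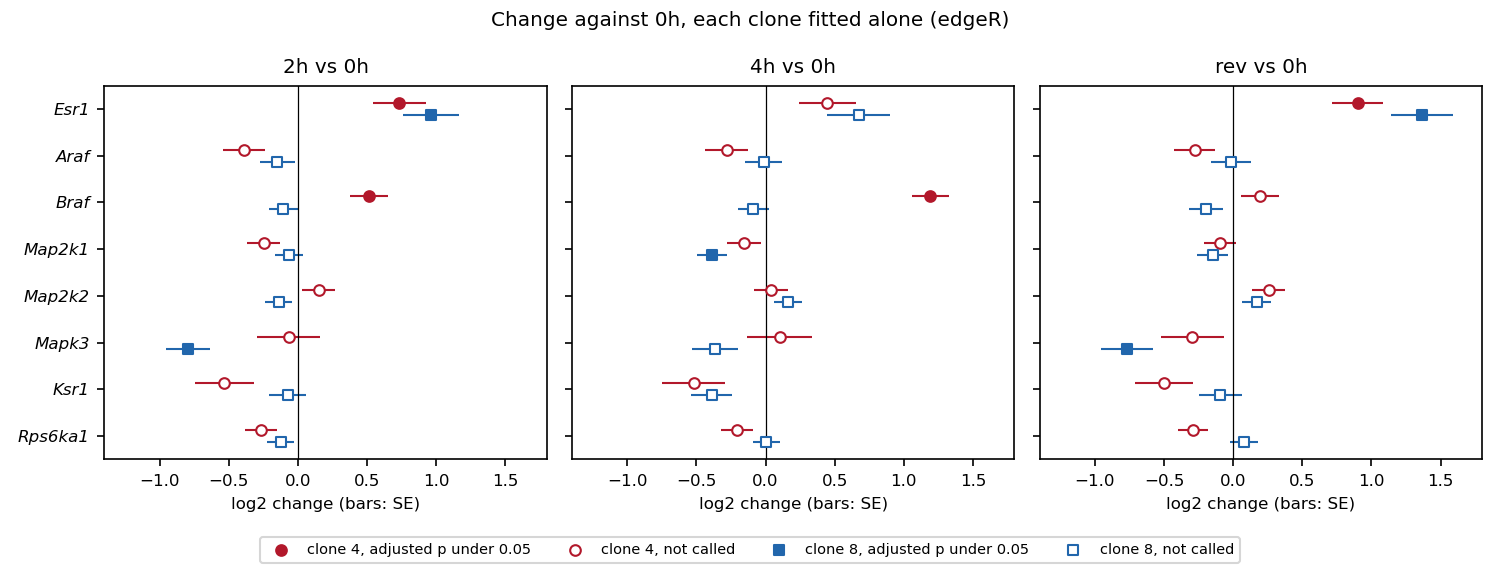
Log2 change of each of the 8 genes against 0h (horizontal axis, bars are SE) at 2h, 4h and rev, with each clone fitted alone in edgeR, red circles for clone 4, blue squares for clone 8 and filled symbols for an adjusted p under 0.05. Braf moves apart between the clones at 4h, 1.19 in clone 4 and −0.090 in clone 8, while Esr1 lies to the right of 0 in both clones at each time.

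To set the 2 RAF genes among the 8 side by side, the reference sequence before their start sites is shown. The RefSeq promoter table (GRCm38.p6) held 7 of the 8 genes. The 250 bases upstream of the annotated start are printed 5′ to 3′ on the gene's strand, at chr6:39725464-39725713 (minus strand) for Braf and chrX:20848293-20848542 (plus strand) for Araf. Capitals mark matches to the CRE motif TGACGTCA, the site that CREB and ATF factors are known to bind.
Braf: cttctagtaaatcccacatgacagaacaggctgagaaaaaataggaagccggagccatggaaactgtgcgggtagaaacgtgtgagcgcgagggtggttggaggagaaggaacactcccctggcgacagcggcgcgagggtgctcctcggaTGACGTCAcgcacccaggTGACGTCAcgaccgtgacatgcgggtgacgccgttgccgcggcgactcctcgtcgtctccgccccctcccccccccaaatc
Araf: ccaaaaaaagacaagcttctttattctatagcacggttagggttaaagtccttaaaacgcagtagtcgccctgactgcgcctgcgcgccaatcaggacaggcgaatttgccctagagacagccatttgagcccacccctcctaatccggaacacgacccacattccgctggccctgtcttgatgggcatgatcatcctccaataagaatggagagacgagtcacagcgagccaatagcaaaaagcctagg

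The Braf window held 2 CRE matches, at 99 to 92 and at 81 to 74 bases upstream. Of 32851 promoters in the table, 1.55% had at least 1 such match in the same 250 bases and 10 (0.0304%) had at least 2. The share with at least 2 was counted for this motif only. The Araf window had no match to any motif searched, on either strand. The others searched were AP-1 (TGANTCA, in 6.75% of promoters), ETS (CCGGAAG, 6.91%), EGR (GCGTGGGCG, 0.536%) and the estrogen response element half-site (AGGTCA, 14%). Over all listed starts of the 7 genes, the only other match was to AP-1, at 230 to 224 bases upstream of start 2 of Ksr1. These are descriptions of reference sequence.

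Araf encodes a further RAF kinase and lies at chrX:20797814-20860519 on the plus strand. Its level was 33.0, 33.2, 26.6 and 28.6 CPM at 0h in clone 4 libraries 1 and 2 and clone 8 libraries 1 and 2, in that order. It was 29.4, 21.3, 27.2 and 22.6 CPM at 2h, 28.7, 25.7, 29.96 and 23.7 at 4h, and 25.3, 29.1, 30.9 and 25.2 at rev. The groups overlapped. Log2 changes against 0h were −0.26 ± 0.12 at 2h, −0.15 ± 0.12 at 4h and −0.14 ± 0.12 at rev (edgeR adjusted p = 0.13, 0.45 and 0.49). The clones did not differ past the threshold, with a log2 difference of −0.074 ± 0.084 (adjusted p = 0.53).

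Map2k1 and Map2k2 encode MEK1 and MEK2, the kinases that PD03 inhibits. Map2k1 lies at chr9:64185770-64253631 on the minus strand and Map2k2 at chr10:81105915-81133975 on the plus strand. Map2k1 was at 52.9, 50.2, 56.4 and 55.8 CPM at 0h and at 41.0, 46.4, 55.8 and 51.5 at 2h, in the same library order. At 4h it was at 44.0, 50.0, 47.2 and 37.8 CPM, the highest of these close to the lowest 0h value of 50.2. At rev it was at 48.2, 48.1, 48.1 and 52.3. With the clones together its log2 change at 4h against 0h was −0.27 ± 0.097 (edgeR adjusted p = 0.073). It passed without 4h library 2 of clone 4 (adjusted p = 0.041) and in clone 8 alone (−0.39 ± 0.11, adjusted p = 0.036).

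Map2k2 was at 45.9, 45.3, 39.1 and 42.1 CPM at 0h and at 49.7, 52.2, 37.8 and 35.8 at 2h. It was at 43.5, 52.1, 44.0 and 46.7 CPM at 4h and at 55.0, 53.9, 41.8 and 48.0 at rev. The clone 4 libraries were above those of clone 8 at 0h, 2h and rev, and the clones overlapped at 4h. No log2 change between groups passed, with values of 0.0088 ± 0.091 at 2h, 0.11 ± 0.093 at 4h and 0.21 ± 0.092 at rev against 0h (adjusted p by edgeR = 0.96, 0.47 and 0.16).

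Per kilobase of exon, Map2k2 supplied 32.4% ± 2.68 (SD, n = 4) of the summed level of both MEK genes at 0h, 35.1% ± 6.99 at 2h, 38.5% ± 2.89 at 4h and 37.6% ± 3.25 at rev. All 4 shares at 4h (35.8% to 42.5%) lay above all 4 at 0h (29.3% to 35.1%). The difference of 6.03 percentage points had p = 0.029 in an exact two-sided permutation test, the smallest p that 4 against 4 libraries allow, and 0.1 after adjustment over 7 comparisons. Clone 8 had a mean share 5.15 points below that of clone 4 (exact permutation p = 0.022, adjusted p = 0.1). None of the 7 comparisons passed after adjustment. A group comparison could hardly pass, since even full separation of 4 against 4 libraries gave 0.1 here. The permutation also took no account of clone, so these tests do not decide whether the share changed.

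**Figure D3:**
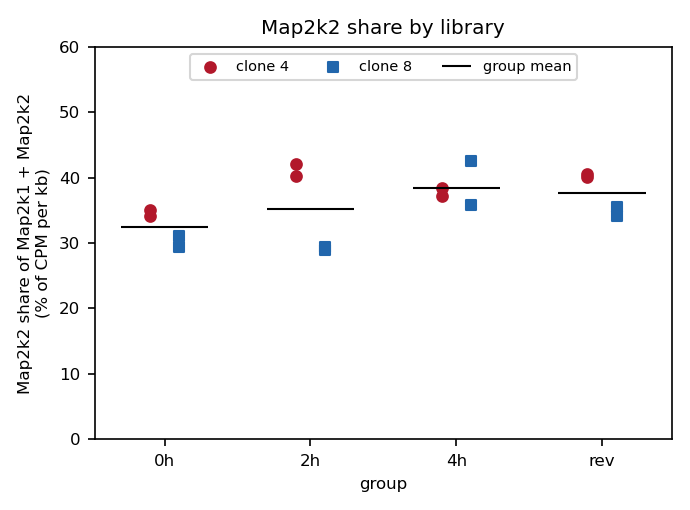
Share of Map2k2 in the summed level per kilobase of Map2k1 and Map2k2 (percent, vertical axis from 0) in each library of the 4 groups (horizontal axis), with red circles for clone 4, blue squares for clone 8 and bars for group means. The means run from 32.4% at 0h to 38.5% at 4h, and at 2h the clones lie apart, at 40.2% and 42.1% against 28.9% and 29.4%.

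Mapk3 encodes ERK1, which MEK phosphorylates, and lies at chr7:126759601-126765819 on the plus strand. In clone 4 its level was 16.4 and 15.8 CPM at 0h, 11.9 and 19.1 at 2h, 13.5 and 23.1 at 4h, and 15.2 and 11.1 at rev. In clone 8 it was 19.1 and 14.9 CPM at 0h, 9.35 and 10.5 at 2h, 12.3 and 14.9 at 4h, and 12.4 and 8.96 at rev. The 2 clone 4 libraries of 2h and of 4h lay far apart, and in clone 8 both 2h libraries were below both 0h libraries. Over both clones the log2 change was −0.44 ± 0.19 at 2h, −0.13 ± 0.19 at 4h and −0.53 ± 0.20 at rev against 0h (adjusted p by edgeR = 0.11, 0.73 and 0.091).

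In clone 8 alone Mapk3 fell by 0.79 ± 0.16 at 2h and by 0.77 ± 0.19 at rev in log2 units (edgeR adjusted p = 0.0015 and 0.013), and in clone 4 alone the values were −0.066 ± 0.23 and −0.30 ± 0.23 (0.87 and 0.41). The difference between the clones at 2h was −0.73 ± 0.30 and did not pass (edgeR adjusted p = 0.12). It passed without 2h library 1 of clone 4 (−1.04, adjusted p = 0.026). Over both clones, the change at 2h against 0h passed without 2h library 2 of clone 4 (−0.63, adjusted p = 0.030). The level difference between the clones, −0.32 ± 0.14 (adjusted p = 0.076), passed without any 1 of 3 libraries, 0h library 2 of clone 4, 0h library 1 of clone 8 or 4h library 1 of clone 4 (0.028 to 0.050).

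Rps6ka1 encodes RSK1, a kinase that ERK activates, and lies at chr4:133847290-133887797 on the minus strand. It was at 67.7, 66.2, 55.3 and 49.4 CPM at 0h, at 52.9, 59.2, 50.8 and 45.8 at 2h, at 59.6, 56.9, 53.0 and 52.5 at 4h and at 57.5, 52.0, 55.1 and 55.9 at rev, in the library order used above. The clones did not overlap at 0h, 2h and 4h, with clone 4 higher, and overlapped at rev. The log2 change against 0h was −0.19 ± 0.085 at 2h, −0.095 ± 0.086 at 4h and −0.11 ± 0.086 at rev (edgeR adjusted p = 0.13, 0.52 and 0.46).

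In the comparison of 4h with 2h, edgeR called 0 of the 8 genes against 12.1% of all tested genes (1 at an unadjusted p under 0.05, 0 by DESeq2). Between rev and 4h it called 2, Esr1 higher and Braf lower, against 9.61% of all tested genes (4.5% higher and 5.1% lower). Between rev and 2h edgeR called 0, against 1.78% of all tested genes (1 at an unadjusted p under 0.05, 0 by DESeq2). The median log2 change of the 8 genes was 0.099, 0.050 and 0.049 in these comparisons, against −0.0026, 0.0026 and −0.0068 over all tested genes. The comparisons share the 4h, 2h and rev libraries.

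Compared per kilobase of exon over all 16 libraries, the 8 genes ordered as Map2k1 (mean 14.5 CPM per kilobase), Rps6ka1 (13.1), Map2k2 (8.09), Mapk3 (6.33), Araf (4.21), Braf (2.82), Ksr1 (1.97) and Esr1 (0.876). Libraries of Map2k1 ranged from 11.2 to 16.6 and those of Rps6ka1 from 10.8 to 15.9, so these neighbours overlapped. Rps6ka1 and Map2k2 (6.33 to 9.71) did not overlap. Each later pair of neighbours did: Mapk3 ranged from 3.97 to 10.2, Araf from 3.25 to 5.08, Braf from 2.13 to 5.68, Ksr1 from 1.11 to 3.20 and Esr1 from 0.242 to 1.72. Total RNA depleted of ribosomal RNA can hold unspliced transcripts, which exon length does not take into account.

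**Figure D4:**
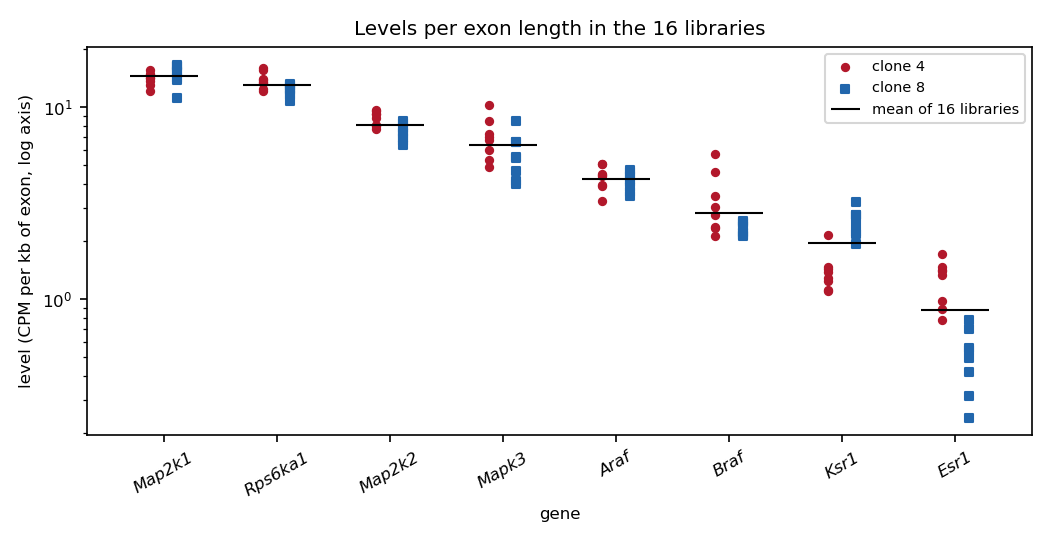
Level per kilobase of exon (CPM per kilobase, log axis) of the 8 genes in the 16 libraries, with red circles for clone 4, blue squares for clone 8 and bars for the mean of 16. The means fall from 14.5 for Map2k1 to 0.876 for Esr1, and the clones separate most for Esr1.

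The rest of the pathway was taken from 5 lists by role, which hold 45 other genes, 44 of them tested. At 2h against 0h edgeR called 7 of 44 higher and 3 lower, at 4h 5 higher and 2 lower, and at rev 4 higher and 1 lower. These are 22.7%, 15.9% and 11.4% of the tested list genes, near the 17%, 12.9% and 10.5% of all tested genes. Between 2h and 4h 1 was higher and 5 were lower (13.6% called, against 12.1% of all), and from 4h to rev 1 was higher and 1 lower (4.55% against 9.61%). Between rev and 2h edgeR called 0 against 1.78% of all (5 at an unadjusted p under 0.05, 0 by DESeq2). The medians were 0.076 at 2h, 0.034 at 4h and 0.015 at rev on the log2 scale, against 0.0033, −0.0064 and 0.00027 over all tested genes. Clone levels differed for 22 of 44 (50%), 10 higher and 12 lower in clone 8, against 34.9% of all tested genes, 17.1% higher and 17.8% lower.

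Upstream of RAF, the list of 13 GTPases and adaptors had Rras2 higher at 2h and Shc1 and Rras2 higher at 4h. Rras2, a RAS-related GTPase, rose by 0.50 ± 0.14, 0.44 ± 0.14 and 0.54 ± 0.14 at 2h, 4h and rev against 0h in log2 units (edgeR adjusted p = 0.019, 0.049 and 0.021). The Rras2 change at 2h differed between the clones: the mean level went from 12.9 to 23.6 CPM in clone 4 and from 18.1 to 21.1 in clone 8, and the clone 8 change minus the clone 4 change was −0.65 ± 0.20 (edgeR adjusted p = 0.038). Shc1, an adaptor that links receptors to RAS activation, rose by 0.44 ± 0.14 at 4h and fell by 0.57 ± 0.14 from 4h to rev (edgeR adjusted p = 0.042 and 0.014). Both Shc1 changes differed between the clones, the first by −0.58 ± 0.17 (edgeR adjusted p = 0.038) and the second by 0.97 ± 0.17 as clone 8 minus clone 4 (edgeR adjusted p = 0.00020), with the same signs as for Braf.

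Beside the cascade, the list of 9 genes of parallel MAP kinase cascades had 2 higher and 3 lower at 2h against 0h, where 17% of all tested genes were called and 9.49% were higher. Mapk8, the gene of the kinase JNK1, rose by 0.58 ± 0.14 at 2h and 0.59 ± 0.14 at rev (edgeR adjusted p = 0.0068 and 0.012). At 4h it was 0.13 ± 0.15 from 0h (edgeR adjusted p = 0.63). Its clone 4 means had the same order of groups as those of Esr1. In clone 8 its 4h mean (11.3 CPM) was not above that of 0h (11.6 CPM), unlike Esr1. Map2k6, the gene of a kinase that activates p38, fell by 0.55 ± 0.15, 0.72 ± 0.16 and 0.76 ± 0.16 at 2h, 4h and rev (adjusted p = 0.017, 0.0060 and 0.0057). Of 12 tested scaffolds, chaperones and other regulators, 2 were higher and 0 lower at 2h, and of 9 kinases and factors that ERK phosphorylates, 2 were higher and 0 lower, both counts near that background.

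The genes whose pattern was most like that of each of the 8 were found among 6499 genes by Pearson's r of log2 CPM over the 16 libraries, after each clone's mean was subtracted. For Esr1 they were Gclc (r = 0.945), Gsto1 (0.907) and Rab11b (0.891), and without the subtraction Gclc (0.972), Selenoi (0.953) and Peg10 (0.942). For Braf they were Kmt2a (0.944), Bcl2l11 (0.943) and Scmh1 (0.925), and for Ksr1 Zfhx2 (0.887), Mtch1 (0.835) and Vegfa (0.812). The nearest gene was Taok2 (0.851) for Araf, Notch3 (0.819) for Map2k1, Pus1 (0.806) for Map2k2, Atxn3 (0.815) for Mapk3 and Recql4 (0.795) for Rps6ka1. These are the highest of many values over libraries that share groups and scaling, and describe likeness only.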

How the data were processed

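The authors deposited 1 table of raw counts per Ensembl gene ID with 1 column per library and no normalization. Per the submitters' processing notes, bcl2fastq 2.19.1 and STAR 2.5.3a were used with the build mm10. The counting program, annotation and strand setting are not given in the sources used here. Per the labels' protocols, ribosomal RNA was depleted before library preparation. Symbols and positions came from GENCODE M21 (GRCm38) by gene ID, and 52489 of 52636 IDs matched. The 8 genes and the gene lists were chosen with earlier results of these data known.

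The filter on low counts was filterByExpr with the group as design (count of at least 10, total of at least 15). It kept 12742 genes, whose counts were scaled by TMM. edgeR 4.0.16 in R 4.3.3 fitted a quasi-likelihood model of group and clone over all 16 libraries, and, for clone differences, a model with 1 mean for each of the 8 sets of libraries. P-values were adjusted over all tested genes (Benjamini-Hochberg) with a threshold of 0.05. Each SE is the absolute log2 change over the root of F. Log2 CPM used a prior count of 2. Folds are ratios of mean CPM. The Map2k2 share was tested by exact permutation of libraries. All 8 genes were described in every comparison. Other pathway genes were named where they were called in at least 3 of the 6 group comparisons, and some genes of the pathway are not reported here. Likeness used genes with a mean of at least 10 CPM. Alternatives were DESeq2 1.42.0, other scalings, filters and thresholds, a replicate block, each clone alone and each library left out. The code was tested on simulated data.

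Libraries with the same number did not pair: of 12 correlations of their deviations from the means, 1 was above 0.1 (range −0.13 to 0.12). Libraries of the same clone and group differed beyond counting error (chi-square over its degrees of freedom 1.32 to 4.49), so each was kept.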

Additional observations from a re-analysis of the deposited data

Results flagged for a closer look

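The change of Braf differed between the clones by a test of the difference itself. The clone 8 change minus the clone 4 change was −0.6254 at 2h against 0h, −1.295 at 4h against 0h and 0.9048 from 4h to rev in log2 units (edgeR adjusted p = 0.024, 8.9e-06 and 0.00079). At 4h the 2 clone 4 libraries held 78.7 and 63.5 CPM and the 2 clone 8 libraries 31.0 and 34.5 CPM.

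Map2k1 at rev had 1 library far from the other 3. Clone 8 library 2 held 52.3 CPM against 48.1 to 48.2 CPM, a gap of 0.974 of the group's range, above the critical ratio of 0.829 for 4 samples. Chance gives about 1 such case in 20 groups, and 36 groups were examined.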

How the results depend on the processing

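With the groups' clones left out of the model, 0 of the 8 genes were called at 2h, 4h and rev against 0h and from 4h to rev. Clone 4 alone gave 2 at 2h, 1 at 4h, 1 from 2h to 4h and 1 from 4h to rev, and clone 8 alone gave 2, 1, 0 and 1, and 2 at rev against 0h. In clone 8 alone the Braf change at 4h had the opposite sign, at −0.0901, and was not called (edgeR adjusted p = 0.70). At a threshold of 0.01 the count was 0 at 4h, from 4h to rev and for the clone difference at 2h. With the replicate block it was 1 at 4h and 1 from 4h to rev, where the Braf adjusted p became 0.067 and 0.063, and no other call of the 8 genes changed. With library totals in place of TMM it was 0 at 4h, 1 from 4h to rev, 2 for clone level and 0 for each of the 3 clone differences, and Braf's were −0.041, −0.97 and 0.23. That scaling moved the median of all genes by 0.11 at 2h, −0.24 at rev and by −0.67 to 0.56 in the clone differences. Without the filter the count was 1 from 2h to 4h, 2 at rev, 3 for clone level and 0 for the clone difference at 2h, and DESeq2 gave 0 for the last. Library totals without features above 1% of counts, chosen after the data were seen, gave 2 at 2h, 3 at 4h and 2 at rev. There the Braf change at 4h (0.51, adjusted p = 0.056) and the Rps6ka1 clone level (0.075) were no longer called, and Rps6ka1 at 2h (0.035), Map2k1 and Ksr1 at 4h (0.037 and 0.036) and Mapk3 at rev (0.048) were called, all lower, while the Braf clone differences at 4h and from 4h to rev were still called. Causes were not tested.

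Leaving out 1 library gave 1 to 2 genes called at 2h, 0 to 3 at 4h, 0 to 1 from 2h to 4h, 0 to 2 from 4h to rev, 1 at rev against 0h, 0 at rev against 2h, 4 to 6 for clone level, and 0 to 2, 1 and 1 for the clone differences. The Map2k2 share difference at 4h against 0h was 3.13 points in clone 4 and 8.93 in clone 8, from 2h to 4h −3.37 and 10.03, and from 4h to rev 2.59 and −4.34. Without 1 library at a time these ranged from 4.68 to 6.92, 1.24 to 5.64 and −1.87 to 0.472, the others from 0.394 to 4.79 at 2h, 4.12 to 6.29 at rev against 0h, 0.363 to 4.76 at rev against 2h and −6.46 to −4.51 between clones. Over all genes, calls at 2h against 0h were 2162, with 757 without clone in the model, 446 with library totals and 921 at 0.01. At 4h 1645 became 546, 508 and 694, and 806 in clone 8 alone. From 2h to 4h 1547 became 266, 385 and 457, from 4h to rev 1224 became 251, 530 and 494, and at rev against 0h 1332 became 273, 449 and 450, with 3462, 3142 and 2140 in clone 4 alone. At rev against 2h 227 became 41 without clone, 71 at 0.01, 483 without the filter, 422 in clone 4 and 448 in clone 8. For clone level 4445 became 2189 with library totals. The clone differences of 1012, 729 and 1681 became 525, 443 and 1007 with DESeq2 and 416, 391 and 852 at 0.01, and the first 2 became 476 and 153 with library totals. Esr1 counts of 23 to 242 limit its precision.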

Other observations

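Receptors related to Esr1 and genes known to respond to estrogen were also counted. Of 7 nuclear receptors 3 were tested (Esrra, Esrrb and Nr3c1), and over the 6 comparisons between groups edgeR called 0 of 18 values (4 at an unadjusted p under 0.05, 0 by DESeq2). The change of Esrrb did differ between the clones. edgeR called that difference at 4h against 0h and from 4h to rev, with signs opposite to those of Braf. Of 6 estrogen-response genes 2 were tested (Igfbp4 and Ret), with 0 of 12 values called (1 at an unadjusted p under 0.05, 0 by DESeq2). Over all tested genes the shares called ran from 1.78% (rev against 2h) to 17% (2h against 0h). With so few values, the lack of calls in these 2 lists does not show that their genes were unchanged. Igfbp4 and Ret were low, at a mean of 1.35 and 1.64 CPM.

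Between the clones, Nr3c1, the gene of the glucocorticoid receptor, was higher in clone 8 by a log2 difference of 0.93 ± 0.12 (edgeR adjusted p = 5.9e-06), and Esrrb, an orphan receptor of naive pluripotent cells, by 0.31 ± 0.11 (0.040). Igfbp4 and Ret were higher in clone 8 by 1.03 ± 0.33 and 1.03 ± 0.22 (adjusted p = 0.020 and 0.0011), while Esr1 was lower there. Esrra had a log2 difference of −0.0025 ± 0.13 (adjusted p = 0.99).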
